A study of Mus musculus with 15 samples.

Results

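The 10 naive pluripotency transcription factors Klf2, Klf4, Klf5, Esrrb, Nr5a2, Nr0b1, Tfcp2l1, Tbx3, Zfp42 and Prdm14 were followed through RNA-seq of mouse embryonic stem cells (mESCs) with STAG1, STAG2 or both, the STAG subunits of cohesin, knocked out or depleted. They were taken by symbol from the 23412 genes counted, and all 10 passed the expression filter that left 14508 genes for testing. Their mean levels were lowest when both STAG proteins were depleted, where each of the 10 fell against wild-type cells, to between 6.23% (Prdm14) and 55.3% (Klf2) of the wild-type mean. STAG1 depletion in wild-type cells and each single knockout gave smaller falls at some of these genes, and Klf2 was higher in the Stag2 knockout.

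The male v6.5 mESC line was sequenced under 5 conditions, with 3 replicates each, after 48 h with 50 nM of either siGLO, a control siRNA that targets no gene, or siStag1, a pool against Stag1. Wild-type cells received siGLO (WT siGLO) or siStag1 (WT siStag1), Stag2-/- cells received siGLO or siStag1, and Stag1-/- cells received siGLO only, so that every condition was transfected. Each knockout genotype is represented by 1 CRISPR clone, so a property of the clone and loss of the gene cannot be told apart, and the replicates of a genotype all come from that clone. The p-values therefore measure the spread between these libraries, which may be technical in part.

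Cohesin is a ring complex that folds chromosomes into loops and holds sister chromatids together, and each ring carries either STAG1 or STAG2. Naive pluripotency is the state of the preimplantation epiblast, which mESCs keep in culture with the cytokine LIF. The factors described here form a mutually reinforcing network that sustains this state below and beside Pou5f1 and Sox2, and it is dismantled as cells move on to the formative and primed states of the postimplantation epiblast. In this network the Krüppel-like factors Klf2, Klf4 and Klf5 bind related GC-rich sites, Esrrb and Nr5a2 are orphan nuclear receptors, Nr0b1 (DAX1) is an atypical nuclear receptor that lacks a DNA-binding domain, Tfcp2l1 acts under LIF and STAT3, Tbx3 is a T-box factor, Zfp42 (REX1) is the usual reporter gene of the naive state, and Prdm14 holds back FGF signalling and DNA methylation.

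Between 14982560 and 19070126 counts fell on genes in each library, with a median of 17700059. Values below are normalized counts, which are gene counts divided by the TMM-scaled library total and brought to a common depth of 17381112. The smallest level taken as detectable, 3 counts, corresponds to 2.71 to 3.49 normalized counts, and this floor covers counting error only. The embryonic stem cell markers fixed for these cells were present in every condition, with WT siGLO means of 20040 for Pou5f1, 9239 for Sox2 and 5170.0 for Nanog. Normalized Stag2 counts were 662 to 738 in Stag2-/- siGLO against 2324 to 2329.7 in WT siGLO, and Stag1 counts were 352 to 516 in WT siStag1 and 628 to 779 in Stag2-/- siStag1 against 2008 to 2283 in WT siGLO. Replicates of a condition differed by more than sampling noise, with a chi-square of 4.52 to 25.2 times its degrees of freedom over the 15 pairs. In both Stag2-/- conditions replicate 1 stood apart, at 18.5 and 25.2 (siStag1) and 19.2 and 22.2 (siGLO) from the others, which lay at 5.45 and 7.81 from each other, and values without these libraries are given below. The Stag1-/- clone carries an in-frame deletion, and its Stag1 counts of 1822 to 2364 overlapped those of WT siGLO, so expression does not check its label.

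Promoter sequence was available for 7 of the 10 factors in the RefSeq promoter table of GRCm38.p6, with 9 start sites among them, and not for Klf5, Tbx3 and Prdm14. The 250 bases before each start were searched on both strands for sites of the network's own classes of regulator and for the CTCF core. The promoters of Tfcp2l1, Zfp42 and Esrrb (the first of its start sites) are shown because these genes carry matches to sites of the KLF, POU and STAT classes, the inputs of the network. Capitals mark matches to GGGNGTGG (KLF class), ATGCAAAT (POU octamer), TTCNNNGAA (STAT class) and AGGNGGC (CTCF core) on either strand, no match overlaps another, and each sequence is given 5′ to 3′ on the strand of the gene.
Tfcp2l1, chr1:118627695-118627944, plus strand: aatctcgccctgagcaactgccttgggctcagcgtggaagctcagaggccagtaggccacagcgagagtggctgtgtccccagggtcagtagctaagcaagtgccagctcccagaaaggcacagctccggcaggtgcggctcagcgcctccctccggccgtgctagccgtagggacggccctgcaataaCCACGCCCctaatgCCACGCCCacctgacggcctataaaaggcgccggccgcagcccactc
Zfp42, chr8:43307010-43307259, minus strand: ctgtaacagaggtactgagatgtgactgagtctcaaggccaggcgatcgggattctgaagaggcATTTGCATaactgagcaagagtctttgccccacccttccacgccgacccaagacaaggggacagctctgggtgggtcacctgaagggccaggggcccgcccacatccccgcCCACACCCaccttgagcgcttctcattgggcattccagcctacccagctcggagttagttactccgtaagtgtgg
Esrrb, chr12:86360867-86361116, plus strand: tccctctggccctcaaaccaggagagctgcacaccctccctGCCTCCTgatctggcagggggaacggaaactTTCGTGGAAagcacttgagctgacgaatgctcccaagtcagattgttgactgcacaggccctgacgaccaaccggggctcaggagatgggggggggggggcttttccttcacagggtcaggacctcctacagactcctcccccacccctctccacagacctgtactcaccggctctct
The KLF-class letters occurred in 3 of the 9 windows (Tfcp2l1, where they occur 2 times, Zfp42 and Nr5a2) and in 15.9% of the 32851 windows of all genes. The octamer stood in 1 window (Zfp42) against 1.6% of all, and the STAT-class letters in 1 (Esrrb) against 7.02%. The CTCF core was found in 4 windows (Esrrb, Klf2, Klf4 and Nr0b1) against 25.0% of all. TCAAGGTCA, the site class of Esrrb and Nr5a2, was in none of the 9 and in 0.387% of all windows. These matches describe the letters only.

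On GENCODE M21 (mm10), the Krüppel-like genes lie at chr8:72319033-72321656 on the plus strand (Klf2), chr4:55527143-55532466 on the minus strand (Klf4) and chr14:99298691-99315036 on the plus strand (Klf5). The nuclear receptor genes lie at chr12:86361117-86521628 on the plus strand (Esrrb), chr1:136842571-136960448 on the minus strand (Nr5a2) and chrX:86191764-86195947 on the plus strand (Nr0b1). Tfcp2l1 lies at chr1:118627945-118685168 and Tbx3 at chr5:119670669-119684724, both on the plus strand, and Zfp42 at chr8:43295063-43306980 and Prdm14 at chr1:13113457-13127163, both on the minus strand. All 10 are protein-coding, and each count covers the whole gene.

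Levels were first compared within WT siGLO as normalized counts per kb of annotated exon. Zfp42 had the highest level, 3418 ± 761 per kb (SD, n = 3), followed by Esrrb (1915 ± 119), Klf4 (1276 ± 26.5) and Klf2 (954 ± 76.7). Tfcp2l1 (818 ± 29.7) and Nr0b1 (789 ± 244) came next, and their replicates overlapped. Below them stood Klf5 (405 ± 41.7), Tbx3 (323 ± 17.9), Prdm14 (172 ± 10.1) and Nr5a2 (157 ± 11.1), and the replicates of Prdm14 and Nr5a2 overlapped. Zfp42 kept the highest level per kb in all 5 conditions. The last place passed to Tbx3 in Stag1-/- siGLO, at 60.6 ± 6.66 per kb, and to Prdm14 in WT siStag1 and in both Stag2-/- conditions.

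**Figure D1:**
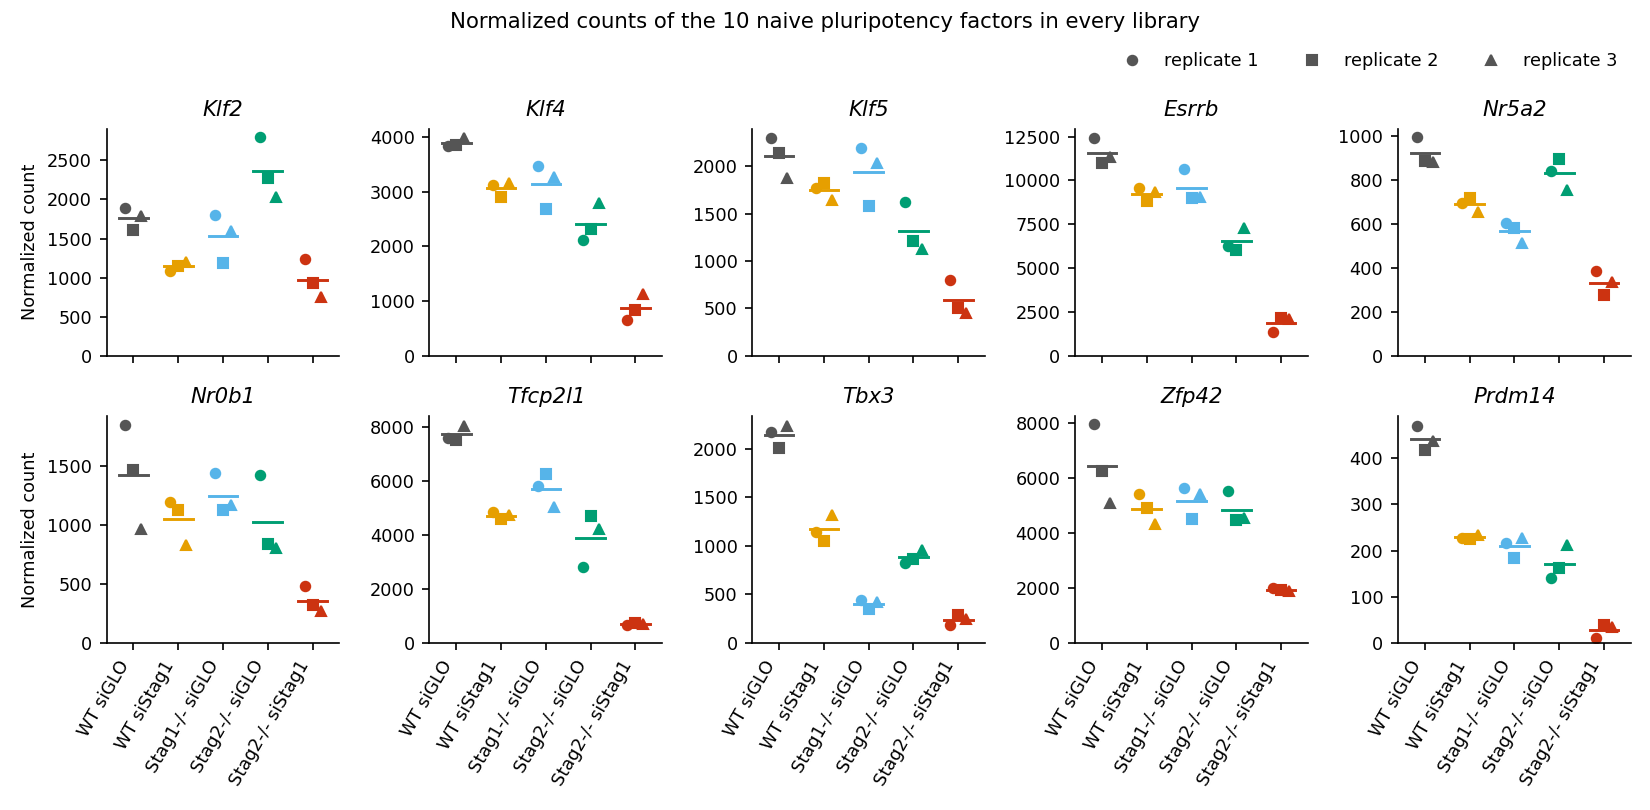
Normalized counts (y axes, starting at 0) of each naive factor in all 15 libraries, by condition, with 1 symbol per replicate number and a bar at the mean of 3. The means of all 10 factors are lowest in Stag2-/- siStag1, where Klf2 overlaps WT siStag1, Tbx3 stands at 352 to 436 in Stag1-/- siGLO, and Klf2 reaches 2026 to 2802 in Stag2-/- siGLO.

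The Krüppel-like factors were described first. Klf4, one of the original reprogramming factors and a direct target of STAT3, had 3840.3, 3851 and 3985 normalized counts in replicates 1, 2 and 3 of WT siGLO and 646, 844 and 1137 in Stag2-/- siStag1. Intermediate values of 2124, 2311 and 2786 were found in Stag2-/- siGLO, and the WT siStag1 libraries (3126, 2902 and 3153) and the Stag1-/- siGLO libraries (3478, 2683 and 3275) lay in one range below WT siGLO. No library of these other 4 conditions reached the WT siGLO range. Klf5, which is also known in the trophectoderm and in epithelia, had 2306, 2141 and 1876 in WT siGLO, 1772, 1824 and 1643 in WT siStag1, 2193, 1581 and 2037 in Stag1-/- siGLO, 1624, 1211 and 1123 in Stag2-/- siGLO and 803, 505 and 454 in Stag2-/- siStag1. The Stag1-/- libraries of Klf5 overlapped WT siGLO, and the other 3 conditions did not. Klf2, whose protein is degraded after ERK phosphorylation, followed another course. It had 1891, 1610.3 and 1782 in WT siGLO, 1806, 1180.5 and 1596 in Stag1-/- siGLO and 1089.8, 1146 and 1205 in WT siStag1, but 2802, 2270.2 and 2026 in Stag2-/- siGLO. In Stag2-/- siStag1 it stood at 1237, 931 and 754, the lowest mean of the 5 conditions, and these libraries overlapped those of WT siStag1.

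The nuclear receptors differed among themselves. Esrrb, which can stand in for Nanog in mESC self-renewal, had 12391, 11006 and 11349 normalized counts in WT siGLO and 1328, 2139 and 2108 in Stag2-/- siStag1, the largest loss in counts among the 10 genes. It had 9555, 8839 and 9359 in WT siStag1, 10672, 8991 and 9047 in Stag1-/- siGLO and 6258, 6029.9 and 7309.7 in Stag2-/- siGLO. The 2 STAG1-deficient conditions overlapped each other, and Stag2-/- siGLO lay below both. Nr5a2 (LRH-1), an upstream activator of Pou5f1 in the epiblast that is also known in liver and endoderm, had 999, 889.9 and 882 in WT siGLO, 694, 721 and 656 in WT siStag1 and 607, 582 and 515 in Stag1-/- siGLO. Its values in Stag2-/- siGLO, 841, 898 and 755, overlapped those of WT siGLO, whereas Stag2-/- siStag1 had 386, 279 and 334. Nr0b1, on chromosome X, varied most between replicates, with 1846, 1468 and 965 in WT siGLO and 1427, 836 and 806 in Stag2-/- siGLO. Its other values were 1194, 1130.0 and 830.2 in WT siStag1, 1444, 1124 and 1170.1 in Stag1-/- siGLO and 483, 319 and 266 in Stag2-/- siStag1. Among the conditions, Stag2-/- siStag1 was the only one in which Nr0b1 did not overlap WT siGLO.

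Tfcp2l1 had 7597, 7531 and 8046 normalized counts in WT siGLO and 676, 732 and 702 in Stag2-/- siStag1, which is 9.10% of the wild-type mean. It had 4834, 4593 and 4722 in WT siStag1, 5821, 6256 and 5036 in Stag1-/- siGLO and 2800.3, 4688 and 4219.6 in Stag2-/- siGLO. Every library of these conditions was below WT siGLO, and replicate 1 of Stag2-/- siGLO was below the other replicates. Tbx3, which is also known in primitive endoderm and in limb and heart, had 2175, 2006 and 2234 in WT siGLO, 1142, 1045 and 1316 in WT siStag1 and 823, 868 and 953 in Stag2-/- siGLO. In Stag1-/- siGLO it had 436, 352 and 416, and in Stag2-/- siStag1 188, 282 and 243. The 5 conditions did not overlap at Tbx3, and its Stag1-/- siGLO libraries lay below those of WT siStag1 and Stag2-/- siGLO.

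Zfp42 had 7939, 6257 and 5092 normalized counts in WT siGLO, 5402, 4906 and 4297 in WT siStag1, 5606, 4495 and 5387 in Stag1-/- siGLO, 5520.3, 4473 and 4529 in Stag2-/- siGLO and 2006, 1916 and 1867 in Stag2-/- siStag1. The first 4 conditions overlapped, and Stag2-/- siStag1 was below all of them. Prdm14 had 469, 418 and 438 in WT siGLO and 38.9 to 51.8% of its wild-type mean in 3 conditions, with 227, 226 and 234 in WT siStag1, 216, 184 and 227 in Stag1-/- siGLO and 141, 162 and 212 in Stag2-/- siGLO. In Stag2-/- siStag1 it had 9.84, 38.4 and 34.3, from 10 to 37 raw counts, so this level was read from few counts, all above the floor of 3. It was the lowest share of wild type among the 10 genes.

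Depletion of both STAG proteins was examined by comparing Stag2-/- siStag1 with WT siGLO. All 10 factors fell, with log2 fold changes from −0.85 (Klf2) to −4.01 (Prdm14) and a median of −2.08 against 0.0055 over all genes tested. By edgeR's two-sided quasi-likelihood test with a Benjamini-Hochberg adjusted p under 0.1 over all genes, 21.3% of genes were called lower in this comparison, and the highest adjusted p among the 10 factors was 0.00107 (Klf2). The replicates did not overlap at any of the 10, and this was so in the lower direction for 23.3% of all genes. Since RNA was taken from whole cultures, fewer cells in the naive state and less RNA per cell cannot be told apart here or below.

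After Prdm14 (SE 0.28, adjusted p = 5.04e-08), the members with the largest falls were Tfcp2l1 at −3.46 (SE 0.15, adjusted p = 7.3e-10), Tbx3 at −3.17 (SE 0.14, adjusted p = 7.3e-10) and Esrrb at −2.64 (SE 0.15, adjusted p = 5.07e-09). Klf4 stood at −2.15 (SE 0.16), Nr0b1 at −2.00 (SE 0.27), Klf5 at −1.84 (SE 0.19), Zfp42 at −1.74 (SE 0.14) and Nr5a2 at −1.47 (SE 0.12), with adjusted p from 8.47e-08 to 3.22e-05. Klf2 had the smallest fall (SE 0.17). Klf2 and Zfp42 lie on chromosome 8, where the median of 757 genes was −0.23 in this comparison, and Nr0b1 lies on chromosome X, with a median of 0.13. The calls of all 10 held without any 1 of the 6 libraries, and without replicate 1 of Stag2-/- siStag1 the values ran from −1.06 (Klf2) to −3.60 (Prdm14).

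**Figure D2:**
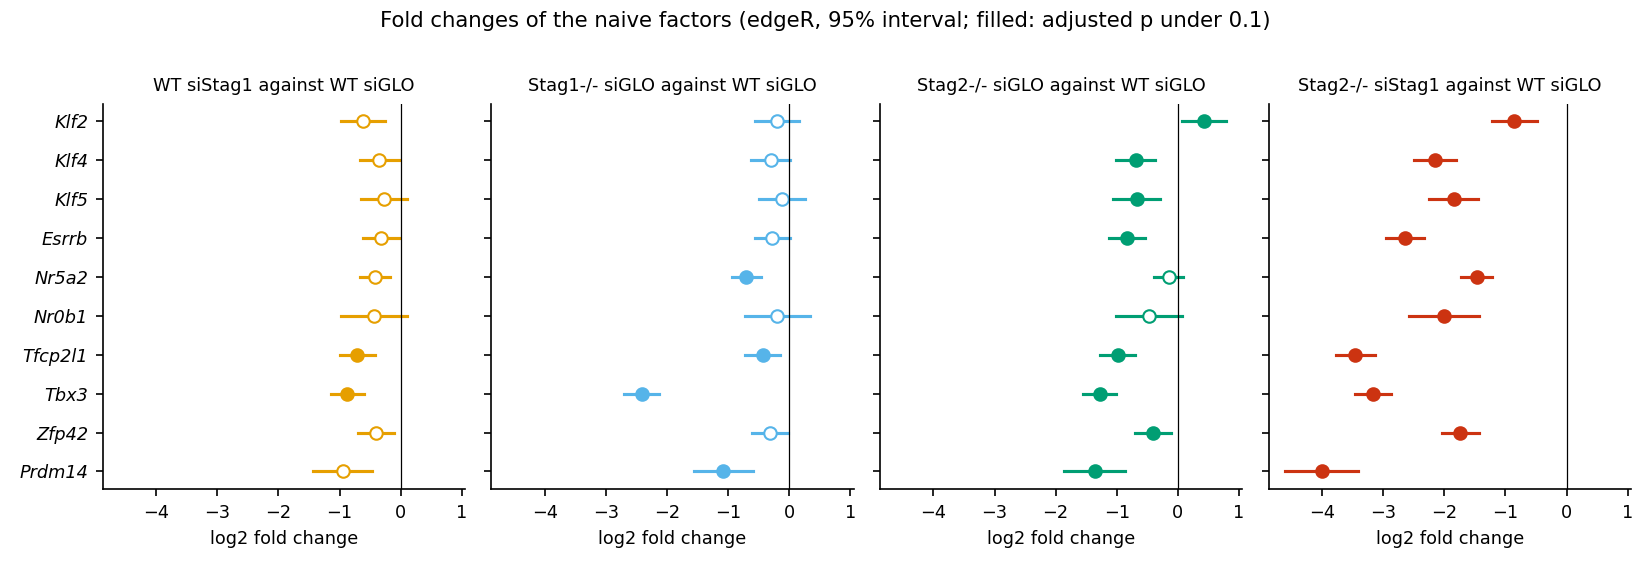
Log2 fold change of each naive factor against WT siGLO (x axes) in the other 4 conditions, with the 95% interval from edgeR and filled points for an adjusted p under 0.1. The Stag2-/- siStag1 values run from −0.85 to −4.01, all filled, and the 1 point above 0 is Klf2 in Stag2-/- siGLO at 0.43.

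Stag1 depletion on the Stag2-/- background was examined within the clone, which removes differences between the clone and wild-type cells. Against Stag2-/- siGLO, all 10 factors fell in Stag2-/- siStag1, with log2 fold changes from −1.17 (Klf5) to −2.65 (Prdm14), a median of −1.49 and adjusted p from 1.3e-07 to 0.00372. In this comparison 3.39% of all genes were called lower, and the replicates of 9.15% did not overlap in that direction, whereas this was so at all 10 factors. Tfcp2l1 stood at −2.47 (SE 0.14), and 20 of the 14508 genes had a lower fold change. Prdm14 (SE 0.28) had 13 genes below it, Tbx3 at −1.89 (SE 0.14) had 46, Esrrb at −1.81 (SE 0.14) had 57 and Klf5 (SE 0.19) had 208. Klf2 fell by 1.28 (SE 0.17, adjusted p = 0.000382), from the highest level of the study to below its wild-type level. The calls of all 10 held in each of the 6 fits without 1 library. The values ran from −1.28 (Klf4) to −2.44 (Tfcp2l1) without replicate 1 of Stag2-/- siStag1, and from −0.99 (Klf5) to −2.77 (Prdm14) without replicate 1 of Stag2-/- siGLO.

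**Figure D3:**
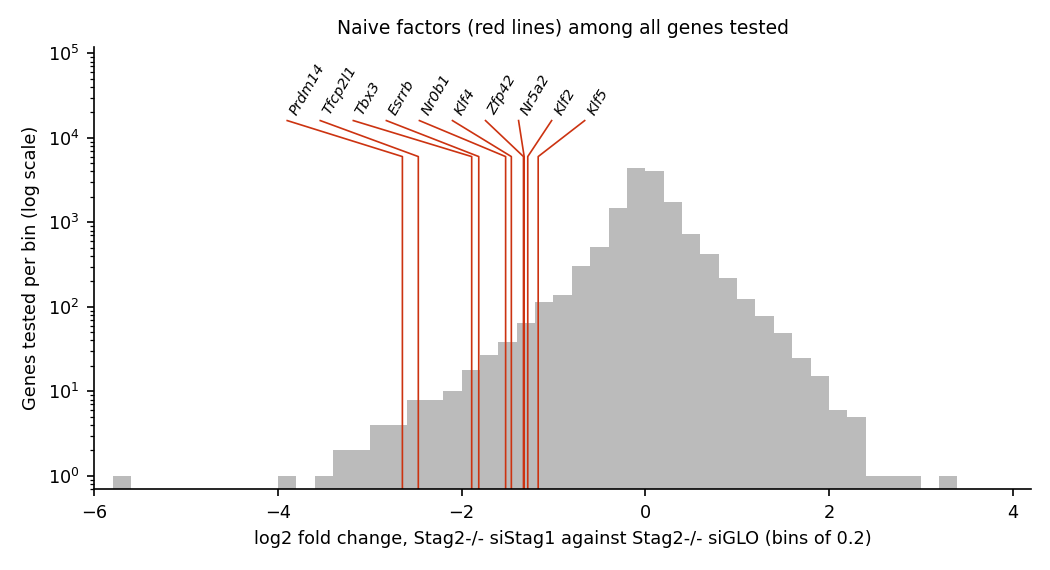
Number of genes tested (y axis, log scale) by log2 fold change in Stag2-/- siStag1 against Stag2-/- siGLO (x axis, bins of 0.2), with a red line at each naive factor. The factors lie between −1.17 and −2.65, where 208 to 13 of the 14508 genes had a lower value.

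The same siRNA in wild-type cells gave smaller values. In WT siStag1 against WT siGLO all 10 log2 fold changes were negative, from −0.27 (Klf5) to −0.95 (Prdm14), with a median of −0.43. edgeR called Tbx3 (−0.87, SE 0.13, adjusted p = 0.0225) and Tfcp2l1 (−0.71, SE 0.13, adjusted p = 0.0481) lower, where 0.145% of all genes were called lower. Same-numbered libraries of these 2 conditions deviated together, and with the replicate number as a block 6 factors were called lower (Tbx3, Tfcp2l1, Prdm14, Klf2, Nr5a2 and Zfp42, adjusted p from 0.00105 to 0.0662), against 0.896% of all genes. The replicates did not overlap, with siStag1 lower, at 8 of the 10 factors and at 8.00% of all genes. The exceptions were Nr0b1 and Zfp42. The edgeR calls were lost with fewer libraries while the values moved little. Without any 1 of the 6 libraries Tfcp2l1 stood at −0.68 to −0.73 and was not called (adjusted p from 0.148 to 0.294). Tbx3 stood at −0.80 to −0.97 in these fits and was not called without replicate 1 or replicate 2 of WT siStag1 (adjusted p = 0.106 and 0.218), so that 0 or 1 factors were called in these fits.

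The difference between the siStag1 effects in Stag2-/- and in wild-type cells was tested directly as an interaction. It was negative at all 10 factors, from −0.66 (Klf2) to −1.76 (Tfcp2l1). By edgeR, 5 were called, namely Tfcp2l1 (SE 0.19, adjusted p = 0.000703), Esrrb at −1.49 (SE 0.20, adjusted p = 0.00398), Tbx3 at −1.02 (SE 0.18, adjusted p = 0.0444), Nr5a2 at −0.90 (SE 0.16, adjusted p = 0.0444) and Klf4 at −1.11 (SE 0.22, adjusted p = 0.0676), where 0.138% of all genes were called lower. Prdm14 (−1.70, SE 0.37, adjusted p = 0.128) and Zfp42 (−0.93, SE 0.20, adjusted p = 0.127) were not called by edgeR, and DESeq2 called both (adjusted p = 8.8e-05 and 0.00488), 7 factors in all. The Klf4 call was lost in a fit of only the libraries compared (adjusted p = 0.161), which called 4. No share of all genes is given for DESeq2 or for that fit, so nothing is read from their counts. The edgeR adjusted p was 0.39 for Klf5, 0.573 for Nr0b1 and 0.616 for Klf2, and the 95% intervals of all 10 lay below 0. Of the 12 fits that left out 1 library, Tfcp2l1 and Esrrb were called in all 12. The number of factors called fell to 2 without replicate 2 of WT siGLO or replicate 1 of WT siStag1, and to 3 without replicate 3 of WT siGLO, replicate 2 or 3 of WT siStag1 or replicate 2 of Stag2-/- siGLO, and it was 8 without replicate 1 of Stag2-/- siStag1 and 6 without replicate 1 of Stag2-/- siGLO. Residual Stag1 was 441 ± 82.9 normalized counts in WT siStag1 and 691 ± 79.0 in Stag2-/- siStag1 (SD, n = 3), and its part in the difference was not tested.

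**Figure D4:**
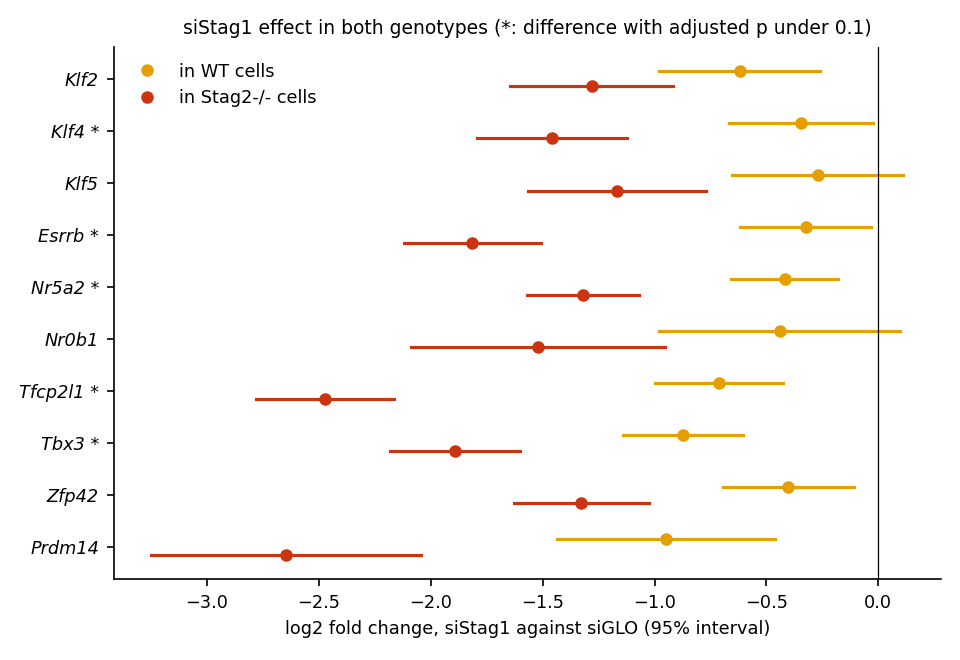
Log2 fold change of siStag1 against siGLO (x axis, 95% interval) for each naive factor in wild-type cells (orange) and in Stag2-/- cells (red), with an asterisk at the 5 factors whose difference had an adjusted p under 0.1. The red points, −1.17 to −2.65, lie left of the orange points, −0.27 to −0.95, at each gene.

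Chronic loss of STAG2 alone was examined in Stag2-/- siGLO against WT siGLO. Of the 10 factors, 7 fell and Klf2 rose, where 14.4% of all genes were called lower and 13.9% higher. The falls were 1.36 for Prdm14 (SE 0.23, adjusted p = 0.000818), 1.28 for Tbx3 (SE 0.13, adjusted p = 7.37e-06), 0.99 for Tfcp2l1 (SE 0.14, adjusted p = 0.000133) and 0.83 for Esrrb (SE 0.14, adjusted p = 0.000701), followed by Klf4 (0.69), Klf5 (0.68) and Zfp42 (0.41). Nr0b1 (−0.48, SE 0.25, adjusted p = 0.196) and Nr5a2 (−0.15, SE 0.11, adjusted p = 0.369) were not called. Nr0b1 was called without replicate 1 of Stag2-/- siGLO (−0.80, adjusted p = 0.0307) or replicate 3 of WT siGLO (−0.70, adjusted p = 0.0801). Over all 6 fits without 1 library its value ran from −0.80 to −0.25, with adjusted p up to 0.544. The replicates of 6 factors did not overlap in the lower direction, against 18.5% of all genes. Klf2 rose by 0.43 (SE 0.17, adjusted p = 0.0846), and this call was lost without replicate 2 or 3 of WT siGLO or replicate 1 or 2 of Stag2-/- siGLO (adjusted p from 0.131 to 0.276). The Zfp42 call was lost without replicate 1 of WT siGLO, where its value was −0.23, or replicate 2 or 3 of Stag2-/- siGLO, and in a fit of only the libraries compared (adjusted p = 0.103). Against the chromosome 8 median of −0.21 in this comparison, Klf2 lay above and Zfp42 below.

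In Stag1-/- siGLO against WT siGLO, 4 factors fell and the other 6 were not called, where 9.93% of all genes were called lower. Tbx3 fell by 2.41 (SE 0.13, adjusted p = 2.68e-08), to 18.8% of its wild-type mean, which was the largest change of any factor in a single-depletion condition. Prdm14 fell by 1.08 (SE 0.23, adjusted p = 0.00493), Nr5a2 by 0.70 (SE 0.11, adjusted p = 0.000624) and Tfcp2l1 by 0.44 (SE 0.13, adjusted p = 0.0395). Those 6 had log2 fold changes from −0.12 (Klf5) to −0.32 (Zfp42), with adjusted p from 0.146 to 0.717. Zfp42 ran from −0.46 to −0.14 over the 6 fits without 1 library, with adjusted p up to 0.564. It was called without replicate 3 of WT siGLO (−0.46, adjusted p = 0.0353). Same-numbered libraries deviated together in this comparison, and the fit with the replicate block also called Klf4 (adjusted p = 0.0757) and Zfp42 (adjusted p = 0.0292), so that 6 factors were called lower against 15.3% of all genes. Klf2 (−0.21) and Zfp42 lie on chromosome 8, where the median of 757 genes was −0.19 in this comparison. A fit of only the libraries compared added Klf4 (adjusted p = 0.0707) and Esrrb (adjusted p = 0.0871). The replicates of 6 factors did not overlap in the lower direction, against 15.9% of all genes. Tfcp2l1 was not called without replicate 3 of WT siGLO or replicate 3 of Stag1-/- siGLO (adjusted p = 0.104 and 0.133).

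Both knockouts were compared directly. In Stag1-/- siGLO, Tbx3 was lower than in Stag2-/- siGLO at a log2 difference of −1.13 (SE 0.13, adjusted p = 3.04e-05), as were Klf2 at −0.63 (SE 0.17, adjusted p = 0.0165) and Nr5a2 at −0.55 (SE 0.11, adjusted p = 0.00355), where 12.9% of all genes were called lower. Klf5 (0.55, SE 0.18, adjusted p = 0.0449), Esrrb (0.55, SE 0.14, adjusted p = 0.012), Tfcp2l1 (0.55, SE 0.13, adjusted p = 0.0104) and Klf4 (0.39, SE 0.15, adjusted p = 0.0907) were higher in Stag1-/- siGLO, where 12.7% of all genes were called higher. With the replicate block, Nr0b1 was also called higher (0.33, adjusted p = 0.0592), which gave 5 factors against 18.1% of all genes. Zfp42 (0.09, interval −0.20 to 0.39) and Prdm14 (0.28, interval −0.22 to 0.78) were not called. Without replicate 1 of Stag2-/- siGLO, Tfcp2l1 stood at 0.36 (adjusted p = 0.0155). The Klf4 call was lost without replicate 1 or 3 of Stag1-/- siGLO or replicate 1 or 2 of Stag2-/- siGLO, and the Klf5 call without replicate 1 or 3 of Stag1-/- siGLO or replicate 2 or 3 of Stag2-/- siGLO.

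The stable loss and the 48 h depletion of STAG1 were set beside each other in Stag1-/- siGLO against WT siStag1. By edgeR over all libraries, Tbx3 was the only factor called, lower in the clone at −1.54 (SE 0.13, adjusted p = 1.57e-06), where 7.82% of all genes were called lower. It held in all 6 fits without 1 library. The other 9 ranged from −0.28 (Nr5a2, interval −0.53 to −0.04) to 0.41 (Klf2, interval 0.053 to 0.77), with adjusted p from 0.134 to 0.909. A fit of only the libraries compared also called Klf2 (adjusted p = 0.0518) and Tfcp2l1 (adjusted p = 0.0759) higher and Nr5a2 (adjusted p = 0.0913) lower in the clone, so that 4 factors were called. No share of all genes is given for that fit, so nothing is read from its count.

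Markers of other states moved with some of these comparisons. All 9 primitive endoderm genes examined (Gata4, Gata6, Sox17, Sox7, Pdgfra, Foxa2, Dab2, Lama1 and Sparc) were called lower in Stag1-/- siGLO, Stag2-/- siGLO and Stag2-/- siStag1 against WT siGLO, with medians of −3.44, −2.30 and −2.12, against 9.93%, 14.4% and 21.3% of all genes. Their summed level was 27682 to 28562 normalized counts in WT siGLO, 25078 to 26370 in WT siStag1, 7908 to 10593 in Stag1-/- siGLO, 6698 to 10410 in Stag2-/- siGLO and 6008 to 8930 in Stag2-/- siStag1, and no marker was at 0 in any library. These sums follow mainly Lama1 and Sparc, with up to 15101 and 9291 in a library, while Foxa2, Sox7 and Sox17 reached at most 88.3, 208 and 268. In Stag1-/- siGLO all 9 were also called lower against WT siStag1, and 5 against Stag2-/- siGLO, where 7.82% and 12.9% of all genes were called lower. Against Stag2-/- siGLO the replicate block also called 1 higher, against 18.1% of all genes. The part of such cells in the lower Tbx3, Nr5a2 and other members in these comparisons was not tested. Within the Stag2-/- clone, where all 10 naive factors fell with siStag1, none of the 9 was called by edgeR without the block, and their summed levels overlapped. There 1 was higher at an unadjusted p under 0.05, in DESeq2 and with the replicate block, which called 7.22% of all genes higher. In WT siStag1 against WT siGLO none was called by edgeR, at an unadjusted p under 0.05 or in DESeq2. Trophoblast genes moved in both clones. Of 6 tested, 3 (Cdx2, Hand1 and Krt7) were called higher in Stag1-/- siGLO against WT siGLO, where 10.1% of all genes were called higher, and the other 3 were not called. With the replicate block 4 were called higher, against 15.3% of all genes. In Stag2-/- siGLO against WT siGLO 3 were called lower and 0 higher, against 14.4% and 13.9% of all genes. In Stag1-/- siGLO 4 were called higher than in Stag2-/- siGLO, against 12.7% of all genes. The summed level of the list was 1388 to 1760 normalized counts in Stag1-/- siGLO, 1142 to 1311 in WT siGLO, 830 to 898 in WT siStag1, 667 to 852 in Stag2-/- siGLO and 388 to 516 in Stag2-/- siStag1, and Hand1 was at 0 in replicate 3 of Stag2-/- siGLO. These sums follow mainly Tfap2c, Krt7 and Eomes, with up to 874, 553 and 295 in a library, and Tfap2c and Eomes are also known outside the trophoblast. The part of such cells in the lower Tbx3, Prdm14, Nr5a2 and Tfcp2l1 of the Stag1-/- clone was not tested.

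Against WT siGLO, genes of the formative and primed epiblast went the other way in both Stag2-/- conditions. Of 15 examined, 13 were called higher and 2 lower in Stag2-/- siStag1 against WT siGLO, with a median of 2.02, where 22.6% of all genes were called higher and 21.3% lower. Sox3 rose by 2.94 (SE 0.20), Lef1 by 3.49 (SE 0.28), the de novo DNA methyltransferase Dnmt3b by 1.88 (SE 0.15) and Zic2 by 2.20 (SE 0.24), and the mesendoderm factor Eomes fell by 1.44 (SE 0.25). In Stag2-/- siGLO against WT siGLO, 12 were called higher and 2 lower, against 13.9% and 14.4% of all genes, with a median of 1.69. In Stag1-/- siGLO against WT siGLO, 3 were called higher and 0 lower, against 10.1% and 9.93%, with a median of 0.05. The replicate block called 3 higher and 1 lower there, against 15.3% each way. In WT siStag1 against WT siGLO the median was 0.40. None was called there, and 5 were called higher with the block, against 0.731% of all genes. With siStag1 in the Stag2-/- clone, 2 were called higher and 2 lower, against 2.98% and 3.39% of all genes, and the median was 0.09, whereas the naive factors had a median of −1.49. The replicate block called 5 higher and 3 lower there, against 7.22% and 6.91% of all genes.

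Among 8 core pluripotency genes, 3 were called lower and 2 higher in Stag2-/- siStag1 against WT siGLO, where 21.3% of all genes were called lower and 22.6% higher, and their median was −0.10 against −2.08 for the naive factors. Nanog, which is regulated with the naive network, fell by 1.61 (SE 0.35, adjusted p = 0.00187). Sox2 fell by 0.49 (SE 0.09), Pou5f1 by 0.31 (SE 0.13, adjusted p = 0.0677), and the RNA-binding protein gene Lin28a rose by 0.74 (SE 0.13). The Pou5f1 call was lost in 4 of the 6 fits without 1 library, with −0.19 (adjusted p = 0.288) without replicate 3 of Stag2-/- siStag1, and its value was −0.47 without replicate 1. Of 11 other genes associated with the naive state, 8 were called lower by edgeR and DESeq2 and none higher (1 at an unadjusted p under 0.05), against the same shares of all genes, with a median of −1.05. These included the AKT cofactor gene Tcl1 (−2.37, SE 0.17), the adhesion gene Jam2 (−2.05, SE 0.18) and Tdh, the threonine dehydrogenase of mESCs (−1.84, SE 0.17). In Stag2-/- siStag1 against Stag2-/- siGLO, 7 of these 11 were called lower and the other 4 were not called, where 3.39% of all genes were called lower. Against WT siGLO, 4 were called lower in Stag1-/- siGLO (5 with the replicate block) and 6 in Stag2-/- siGLO, against 9.93% (15.3%) and 14.4% of all genes. Dppa3 went the other way and was called higher in both, by 1.63 (SE 0.18, adjusted p = 1.6e-05) and 0.75 (SE 0.18, adjusted p = 0.00741), against 10.1% and 13.9% of all genes.

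Of 14 signal inputs of the network, 4 were called lower and 6 higher in Stag2-/- siStag1 against WT siGLO, against 21.3% and 22.6% of all genes. In Stag2-/- siGLO against WT siGLO it was 4 lower and 4 higher, against 14.4% and 13.9%. With siStag1 in the Stag2-/- clone it was 3 and 2 (3.39% and 2.98%), or 3 and 3 with the replicate block (6.91% and 7.22%). The values that follow are of Stag2-/- siStag1 against WT siGLO. Lifr, the LIF receptor, fell by 0.85 (SE 0.10), and Fgf4, the FGF ligand made by mESCs, fell by 1.95 (SE 0.12). Tcf7l1, the WNT-regulated repressor of Esrrb, Klf2 and Tfcp2l1, rose by 1.28 (SE 0.10), and Fgfr2, an FGF receptor, rose by 1.78 (SE 0.17).

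The nearest tested gene on each side of each factor was examined on the mm10 annotation. Of these 20 genes, 7 were called lower, 4 higher and 9 not called in Stag2-/- siStag1 against WT siGLO, with a median of −0.18 and values from −2.15 to 1.63. The shares of all genes called in this comparison were 21.3% lower and 22.6% higher, and nothing is read from the neighbours' counts. Slco5a1, an organic anion transporter family member whose body ends 121 kb from Prdm14, rose by 1.63 (SE 0.20), and Ncoa2, a nuclear receptor coactivator 11.9 kb away, rose by 0.73 (SE 0.08). Clasp1, 15.3 kb from Tfcp2l1, rose by 0.60 (SE 0.11). By contrast, Triml2, 101 kb from Zfp42, fell by 1.34 (SE 0.18), and Vash1 and Gpatch2l beside Esrrb fell by 0.86 (SE 0.23) and 0.47 (SE 0.11). Gm16065, an unnamed gene 0.371 kb from Tbx3, fell by 2.15 (SE 0.70) from 13.8 normalized counts. This call was lost without replicate 3 of WT siGLO (−1.24, adjusted p = 0.212), and since the strand setting of the counting is not given in the sources used here, reads of neighbouring transcripts may not be separable. With siStag1 in the Stag2-/- clone, where all 10 factors fell, 18 of the 20 neighbours were not called by edgeR without the block. Triml2 fell by 0.81 (adjusted p = 0.0191) and Ncoa2 rose by 0.40 (adjusted p = 0.00948), against 3.39% of all genes lower and 2.98% higher. With the replicate block, Fat1 (adjusted p = 0.0057), Nek7 (0.0834) and Clasp1 (0.0987) were also called higher, against 7.22% of all genes. Med13l (0.0834) and Rad23b (0.0963) were then also called lower, against 6.91%. Triml2 stood at −0.53 (adjusted p = 0.0654) without replicate 1 of Stag2-/- siGLO and was not called without replicate 3 of Stag2-/- siStag1 (−0.71, adjusted p = 0.101).

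**Figure D5:**
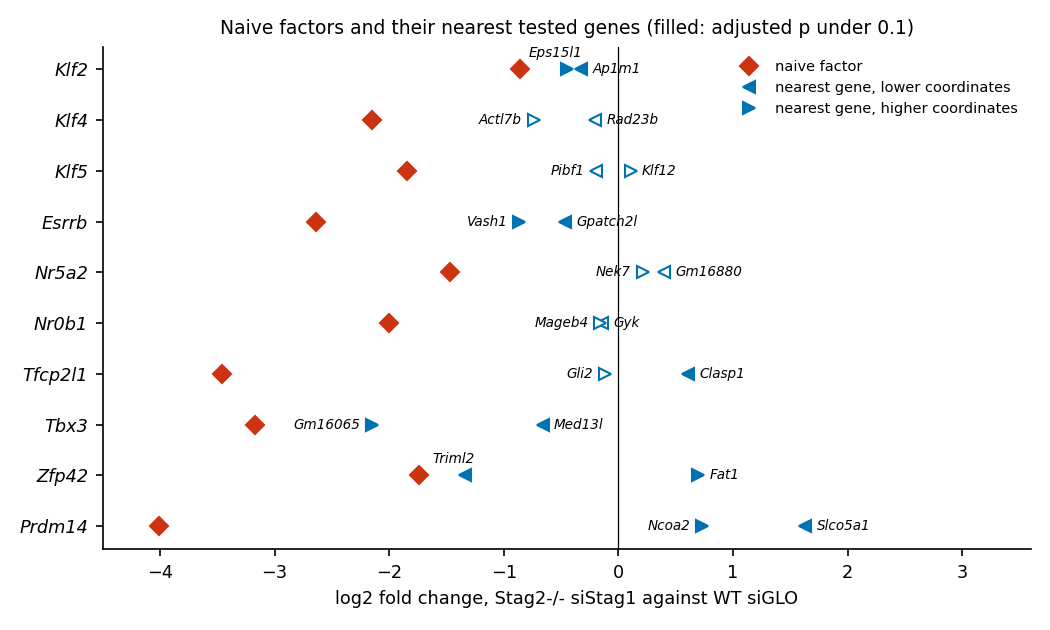
Log2 fold change in Stag2-/- siStag1 against WT siGLO (x axis) of each naive factor (red diamonds) and of the nearest tested gene at lower and at higher coordinates (blue triangles, filled for an adjusted p under 0.1). The factors lie between −0.85 and −4.01, and the neighbours between −2.15 (Gm16065) and 1.63 (Slco5a1).

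The factors were then compared with one another over the 15 libraries, as a description, since libraries of a condition share their treatment. All 45 pairwise correlations of log2 CPM were positive, with a median r of 0.84. Klf4 and Esrrb were the closest pair (r = 0.99) and Klf2 and Klf4 the least alike (r = 0.46). Zfp42 followed the mean of the other 9 most closely (r = 0.98), and Klf2 (r = 0.59) and Tbx3 (r = 0.79) least. After removal of the condition means, 22 of the 45 correlations were positive and their median was −0.10. Esrrb and Prdm14 (r = 0.92) and Klf2 and Klf5 (r = 0.89) varied together within conditions, and Klf5 and Prdm14 in opposite directions (r = −0.72). Nr0b1 and Zfp42 were highest in replicate 1 of all 5 conditions. In replicate 1 of Stag2-/- siStag1, Klf2, Klf5, Nr0b1, Zfp42 and Nr5a2 had the highest of their 3 values, and Klf4, Esrrb, Tfcp2l1, Tbx3 and Prdm14 the lowest.

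Outside the 10 factors, the genes most like their mean pattern over the 15 libraries were Cobl (r = 0.98), Mylpf (r = 0.98), Inhbb (r = 0.97), 2210409E12Rik (r = 0.97) and Lap3 (r = 0.97). Inhbb, which encodes the inhibin beta B chain, had a mean of 1491 normalized counts in WT siGLO, 808 in WT siStag1, 531 in Stag1-/- siGLO, 432 in Stag2-/- siGLO and 49.6 in Stag2-/- siStag1. Cobl, an actin nucleator gene, went from 4504 in WT siGLO to 1378 in Stag2-/- siStag1. The genes most opposed were Ccdc136 (r = −0.94), March6 (r = −0.94), Cacnb3 (r = −0.93), Tmem220 (r = −0.93) and Usp44 (r = −0.93). Cacnb3, a calcium channel beta subunit gene, rose from 427 in WT siGLO to 1368 in Stag2-/- siStag1.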

How the data were processed

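Polyadenylated RNA of 15 libraries was sequenced. Alignment used STAR and mm10, and the authors deposited unnormalized gene counts. The counting tool, its strand setting and the annotation are not given in the sources used here. Besides genes, 4 summary lines (unmapped, multimapping, no feature and ambiguous reads), 19.8 to 23.4% of each library's total, were left out.

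Low genes were dropped with filterByExpr, grouped by condition, at a minimum count of 10 and a minimum total of 15. TMM factors and quasi-likelihood models with a coefficient for each condition came from edgeR 4.0.16 (R 4.3.3), fitted to the 15 libraries together. Tests were two-sided and called at a Benjamini-Hochberg adjusted p under 0.1 over all genes tested. The SE is the size of the log2 fold change divided by the square root of F. Intervals are 95%. The members and gene lists were chosen with earlier results of these data known. Named besides the members are Stag1 and Stag2, the nearest tested gene on each side of each member, the 5 most like and 5 most opposed genes, up to 4 called genes per list with the smallest adjusted p in Stag2-/- siStag1 against WT siGLO, and genes set beside a member result. A gene that this rule names is not reported here. Gene places come from GENCODE M21 on mm10, which held 98.6% of names.

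Replicate numbers come from the sample labels. After removal of the condition means, same-numbered libraries correlated over 14508 genes with a mean r of 0.21 (different numbers −0.10). This removal by itself pushes different numbers below 0 where same numbers lie above it, so the −0.10 is no independent reference. Every same-numbered pair exceeded 0.1 in Stag1-/- siGLO and in WT siStag1 against WT siGLO, between both knockouts and within the Stag2-/- clone. The replicate block is therefore printed there where it changed the call of a member. Over the 18 pairs of the interaction the lowest r was −0.05, so its block stands under the alternatives only. A test of the replicate number itself is not reported, since 24 of 30 pairs, not all, exceeded 0.1. Alternatives were DESeq2 1.42.0, DESeq2 size factors, no filter on low counts, an adjusted p under 0.05, only the libraries compared, a replicate block and leaving out each library in turn. The fits were tested on simulated data. Figures were drawn with matplotlib 3.10.9.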

Additional observations from a re-analysis of the deposited data

Results flagged for a closer look

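The siStag1 effect differed between Stag2-/- and wild-type cells at 5 naive factors by the interaction test of edgeR, where 0.138% of all genes were called lower. The difference, as the log2 fold change in Stag2-/- cells minus that in wild-type cells, was −1.76 for Tfcp2l1 (−2.47 against −0.71), −1.49 for Esrrb (−1.81 against −0.32), −1.11 for Klf4 (−1.46 against −0.35), −1.02 for Tbx3 (−1.89 against −0.87) and −0.90 for Nr5a2 (−1.32 against −0.42). With 3 libraries a group, every Stag2-/- siStag1 library was below every Stag2-/- siGLO library, and every WT siStag1 library below every WT siGLO library, at these 5 genes. Among all genes this was so at 9.15% and 8.00%. The 5 genes were picked by a test on these same libraries, so their separation is no independent support. Tfcp2l1 and Esrrb were called in all 12 fits without 1 library, Tbx3 in 9, Nr5a2 in 6 and Klf4 in 3.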

How the results depend on the processing

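Over all refits of the members' values, 928 stayed on the same side of the threshold in the same direction, 40 passed it only in the alternative, 48 no longer passed and 4 turned direction. The 4 were Klf5 in Stag1-/- against WT siGLO without replicate 2 of Stag1-/- siGLO (0.0052, with −0.22 without replicate 1), Nr0b1 in the same comparison without replicate 1 of WT siGLO (0.034, with −0.41 without replicate 3), and Klf4 (−0.038) and Esrrb (−0.036) in Stag1-/- siGLO against WT siStag1 without replicate 1 of Stag1-/- siGLO (0.14 and 0.092 without replicate 2), none of which was called in either fit. In WT siStag1 against WT siGLO, 2 factors were called by edgeR, 5 by DESeq2, 6 with only the libraries compared and 6 with the replicate block. In Stag1-/- siGLO against WT siStag1 it was 1, and 4 with only the libraries compared and 3 with the replicate block. For the interaction it was 5, and 9 with the replicate block, which left out Klf2 only. Among all genes, edgeR called 0.145% lower in WT siStag1 against WT siGLO, and 0.896% with the block. In Stag1-/- siGLO against WT siStag1 it called 16.0% in either direction, and 26.5% with the block. For the interaction it called 0.138% lower, and 0.731% with the block. No share is given for DESeq2 or for only the libraries compared, so nothing is read from those counts. Without 1 library the number called ranged from 3 to 4 for Stag1-/- against WT siGLO, 6 to 8 for Stag2-/-, 0 to 1 for WT siStag1, 10 to 10 for Stag2-/- siStag1 against either control, 5 to 7 between knockouts, 1 to 2 for Stag1-/- against WT siStag1 and 2 to 8 for the interaction. The cause was not tested. In the comparisons where not every same-numbered pair exceeded 0.1, the block added Nr0b1 in Stag2-/- against WT siGLO. Depth limits Prdm14 in Stag2-/- siStag1, at 10 to 37 counts.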

Other observations

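Of 13 other Krüppel-like family genes tested, 5 were called lower and 3 higher in Stag2-/- siStag1 against WT siGLO, against 21.3% and 22.6% of all genes, with a median of −0.19. Klf8 fell by 1.53 (SE 0.14), from a mean of 578 to 201 normalized counts, and Klf15 had a log2 fold change of −2.06 (SE 0.24), from 197 to 47.3. Klf9 fell by 0.84 (SE 0.11) and Klf3 by 0.67 (SE 0.11). With siStag1 in the Stag2-/- clone, 4 of the 13 were called lower and the other 9 were not called, where 3.39% of all genes were called lower and 2.98% higher. With the replicate block 4 were called lower and 1 higher, against 6.91% and 7.22% of all genes.

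Of 6 trophoblast genes tested, 2 were called lower in Stag2-/- siStag1 against WT siGLO, Tfap2c (−1.70, SE 0.18), which is also known in naive mESCs and germ cells, and Eomes, which the list of epiblast genes also holds. The share of all genes called lower was 21.3%. Of the fibroblast genes, 3 were tested, and Col3a1 was called higher (1.98, SE 0.85, adjusted p = 0.0807), from a mean of 9.77 to 38.5 normalized counts, where 22.6% of all genes were called higher. It was not called without replicate 1 of Stag2-/- siStag1 (0.65, adjusted p = 0.589) or without any 1 of the WT siGLO libraries. Postn, Lum and Dcn had at most 10 counts in every library.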
